A study of Mus musculus with 14 samples.

Results

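Microglia of the chronic phase after stroke, 60 and 90 days after the artery was tied, were compared with microglia of day 7, the subacute phase of the same injury. The comparison used 6 of the 14 libraries of a time course: 2 of day 60, 2 of day 90 and 2 of day 7, chosen by the time point in their labels. All 3 groups were C57BL/6 mice, for which the labels name no genetic change, and all had the same ischemic stroke, a permanent tie of a distal branch of the middle cerebral artery together with 7 min of closure of both common carotid arteries. RNA was taken from cells sorted by FACS (fluorescence-activated cell sorting) out of the cerebral cortex. No sham library was used, so a difference below is between times after stroke and not from uninjured cortex. The labels give an age of 8 to 10 weeks for every group without saying whether this was at surgery or at sampling, so time after stroke and age cannot be told apart. Whether both libraries of a time came from separate animals is not in the labels, and p-values therefore measure a spread between libraries that may be technical.

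Microglia are the resident macrophages of the brain. After a cortical infarct they multiply, migrate to the lesion, take up dead cells and myelin debris, and secrete cytokines and growth factors. The debris is rich in lipid, and macrophages that have loaded it switch on genes of fatty acid and cholesterol handling under nuclear receptors such as Pparg. Late lesions are also known to hold macrophages that present antigen on MHC class II molecules, and lymphocytes that enter the brain over weeks. The comparison asks how cells of the chronic phase differ from those of the subacute peak.

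Depth differed by replicate number, with totals of 18500290 to 28758420 counts for the libraries of replicate 1 and of 134103031 to 191692779 for those of replicate 2. A floor of 3 counts equals 0.104 to 0.162 CPM (counts scaled to a common library total) at the depth of replicate 1, and 0.0157 to 0.0224 CPM at that of replicate 2, and it covers counting error only. Libraries of a time differed by far more than counting error, with a chi-square per degree of freedom that reached 536 for the day 60 pair, 445 for the day 90 pair and 431 for the day 7 pair. The 10 microglial markers, among them Tmem119, P2ry12, Sall1, Siglech, Fcrls, Olfml3, Gpr34, Cx3cr1 and Csf1r, were all counted in these libraries, and together they made up 3560 and 4460 CPM at day 60, 6130 and 7580 CPM at day 90, and 7500 and 12300 CPM at day 7. Within each replicate number the summed microglial level was lowest at day 60 and highest at day 7, while replicate 2 of day 90 was close to replicate 1 of day 7. In bulk RNA, fewer cells of a type and less RNA per cell cannot be told apart. In the text below the values of a time are given with replicate 1 before replicate 2, gene levels are CPM with TMM scaling, marker sums are CPM of the total counts, and a fold change is log2 with its standard error (SE).

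Of 13366 genes tested, 482 (3.61%) passed an adjusted p of 0.05 when the 4 chronic libraries were set against the 2 of day 7 with the replicate number as a block. In the chronic libraries 323 genes (2.42%) were higher and 159 (1.19%) were lower. Counts of list members called in the pooled comparison below are to be read against these shares. At an unadjusted p under 0.05 there were 2881 genes. The called genes included macrophage proteases, lipid enzymes, MHC class II genes, chemokines and transcripts of B and T cells on the higher side, and osteopontin, the growth factor Csf1 and mitotic genes on the lower side. For 464 of the 482 genes the 4 chronic values lay entirely on 1 side of both day 7 values. The direction was the same within replicate 1 and within replicate 2 for all 482, beside 74% of all genes tested, and a test with the replicate as a block favours such genes. Over all genes tested the groups did not overlap in 1990 genes with all chronic libraries above (14.9%) and 1574 with all chronic libraries below (11.8%).

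The number of calls rested on both day 7 libraries. Without day 7 replicate 1 edgeR called 2 genes, and without day 7 replicate 2 it called 0, with 1513 genes at an unadjusted p under 0.05. Leaving out day 60 replicate 1 gave 206 calls among 13519 genes tested, 148 higher and 58 lower. Leaving out day 60 replicate 2 gave 395 among 12425, 277 higher and 118 lower. Leaving out day 90 replicate 1 gave 322 among 13402, 208 higher and 114 lower. Leaving out day 90 replicate 2 gave 1643 among 12279, 770 higher and 873 lower. Pooled calls of list members without 1 of these libraries are to be read against the totals of the same fit. Each of the 482 genes that could be measured kept its direction in all of these fits. No member of any gene list below was called without either day 7 library, except the B cell gene Faim3, which was called without day 7 replicate 1. DESeq2 called 1951 genes and limma-voom 173 on the same 6 libraries. A fit with a separate mean for each time, which takes the difference between days 60 and 90 out of the error, called 3891 genes, 2086 higher and 1805 lower, and these included all 482.

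**Figure D1:**
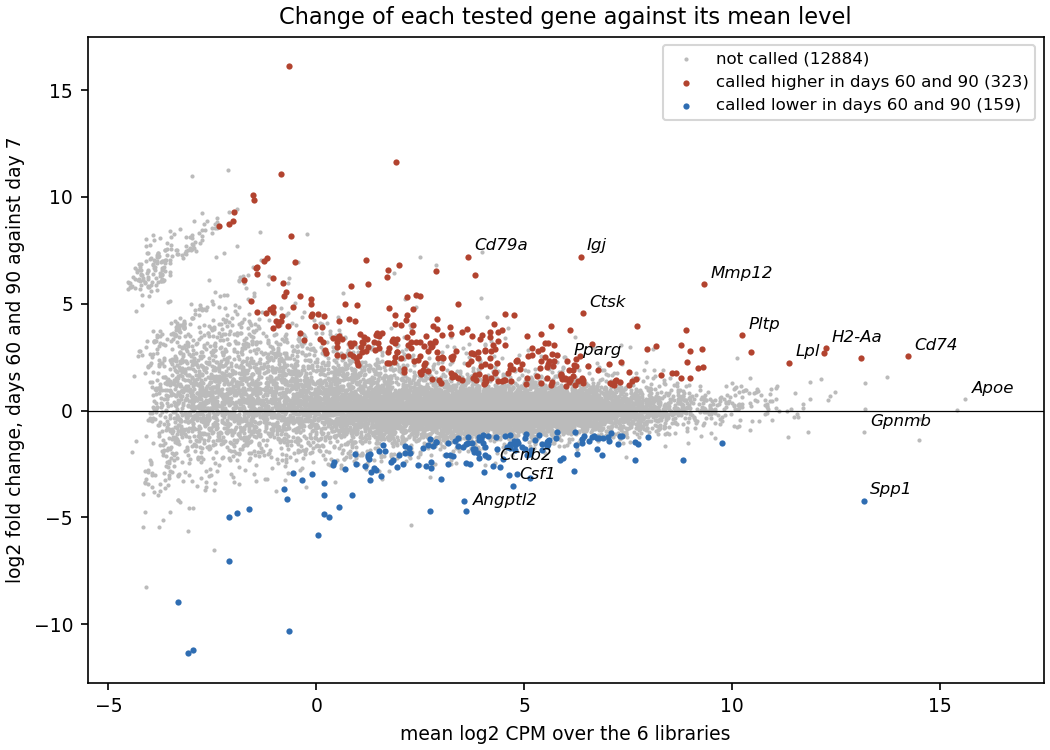
Each point is 1 of the 13366 genes tested, with its mean log2 CPM over the 6 libraries on the horizontal axis and its log2 fold change of days 60 and 90 against day 7 on the vertical axis. The 323 genes called higher (red) and 159 called lower (blue) include abundant ones such as Mmp12, Lpl and Cd74 above 0 and Spp1 below 0, while Apoe and Gpnmb were not called.

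The most abundant transcript that fell was Spp1, which encodes osteopontin, a secreted integrin ligand of activated macrophages. Its level was 5315 and 5063 CPM at day 60, 2360 and 2077 CPM at day 90, and 64840 and 72890 CPM at day 7. The 4 chronic libraries were all far below both day 7 libraries, and day 90 was below day 60. The fold change was -4.22 ± 0.51 (adjusted p = 0.0166), and that of day 90 against day 60 was -1.23 (adjusted p = 0.000636). Csf1, the growth factor that keeps macrophages alive through the receptor Csf1r, was at 21.2 and 12.1 CPM at day 60, 9.90 and 7.44 CPM at day 90, and 201 and 97.2 CPM at day 7. It fell by 3.51 on the log2 scale (SE 0.36, adjusted p = 0.0124). The receptor itself did not pass, with Csf1r at 1314 and 2287 CPM at day 60, 1817 and 2816 CPM at day 90, and 1539 and 1634 CPM at day 7, a change of 0.32 ± 0.31 (adjusted p = 0.583). Chronic and day 7 values of Csf1r overlapped.

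Other genes with large falls encode secreted and metabolic proteins. Angptl2, a secreted angiopoietin-like protein, was at 4.31 and 2.55 CPM at day 60, 6.23 and 4.0 CPM at day 90, and 180 and 64.6 CPM at day 7 (-4.71 ± 0.33, adjusted p = 0.00402). Cdo1, the cysteine dioxygenase that starts cysteine breakdown, was at 5.20 and 4.49 CPM at day 60, 3.69 and 4.23 CPM at day 90, and 72.5 and 94.7 CPM at day 7 (-4.24 ± 0.25, adjusted p = 0.00372). These 2 genes were at single-digit CPM in every chronic library. Psat1, an aminotransferase of serine synthesis, was at 11.4 and 14.1 CPM at day 60, 16.0 and 16.5 CPM at day 90, and 124 and 103 CPM at day 7 (-2.97 ± 0.24, adjusted p = 0.0076). The rest of the 12 largest falls were Chst1 (-3.21), Pald1 (-3.14), Wdfy1 (-3.03), Zranb3 (-2.86), a translocase of stalled replication forks, the polo-like kinase Plk3 (-2.84), Gal3st4 (-2.64) and the mitotic cyclin Ccnb2 (-2.59), with adjusted p between 0.0076 and 0.0371. Gal3st4 is uncertain, since 93.4% of its 50-base words also occur in another annotated gene, Gm43720 sharing the most.

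Genes of mitosis fell in the chronic phase. Of 40 members of the list tested, 11 were called lower and 0 higher, against 1.19% of all genes called lower, and the median fold change was -1.69 against 0.10 over all genes tested. In 36 of the 40 genes all 4 chronic libraries lay below both day 7 libraries (11.8% of all genes). The called members were Hmmr, Ccnb2, Ccne1, Ccnb1, Cdc20, Aurka, Birc5, Tpx2, Cdk1, Ube2c and Stmn1, which act in mitotic entry, spindle assembly and exit from mitosis, apart from Ccne1, the cyclin of S-phase entry. Without day 60 replicate 1 there were 6 called members, where 58 of 13519 genes were called lower. Without day 90 replicate 2 there were 37, where 873 of 12279 genes were called lower.

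Hmmr, a spindle protein, was at 2.12 and 2.85 CPM at day 60, 4.95 and 5.28 CPM at day 90, and 23.5 and 25.2 CPM at day 7 (-2.68 ± 0.40, adjusted p = 0.0263). Ccnb2, which activates Cdk1 at mitosis, was at 6.21 and 7.15 CPM at day 60, 14 and 16.9 CPM at day 90, and 48.1 and 89.7 CPM at day 7 (adjusted p = 0.0371). In both genes the order of the times was the same in every library, day 60 lowest and day 7 highest. Mki67, which encodes the proliferation antigen Ki-67, was at 7.51 and 3.54 CPM at day 60, 19.2 and 13.5 CPM at day 90, and 33.9 and 22.8 CPM at day 7. The pooled test did not pass for Mki67 (-1.38 ± 0.56, adjusted p = 0.225) nor for the topoisomerase gene Top2a (-1.69 ± 0.68, adjusted p = 0.216), although all chronic values were below both day 7 values.

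With a mean for each time, 39 of the 40 cell cycle genes were lower at day 60 than at day 7 (16.4% of all genes were called lower in that comparison) and 33 were lower at day 90 than at day 7 (8.92% of all genes). Both comparisons share the day 7 libraries. Day 90 was above day 60 in 25 of the 40 genes (11.0% of all genes were called higher at day 90 than at day 60) and below it in 0. The median over the list was -2.24 at day 60 and -1.27 at day 90, each against day 7. These 25 calls were 11 without day 60 replicate 1, 11 without day 90 replicate 2 and 0 without day 60 replicate 2, where 22 members had an unadjusted p under 0.05 in edgeR; DESeq2 called 26 on all 6 libraries.

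**Figure D2:**
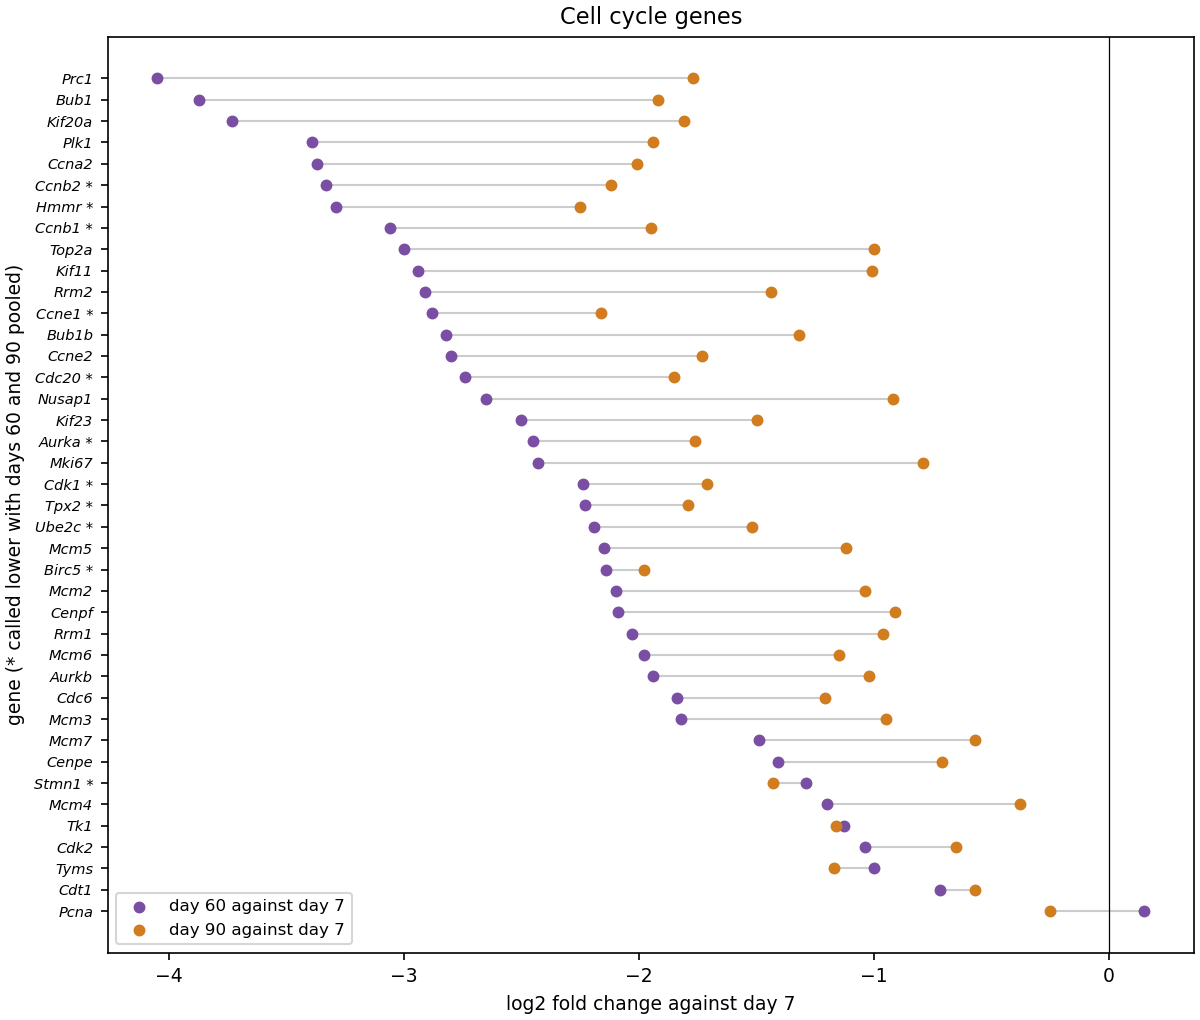
The 40 cell cycle genes are plotted by their log2 fold change against day 7, day 60 in purple and day 90 in orange, with a grey line joining both values of a gene. Almost all points lie left of 0, with medians of -2.24 at day 60 and -1.27 at day 90, and the 11 genes with a star were called lower with both chronic times pooled.

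Promoters of cell cycle genes active in late G2 and mitosis are known to carry CCAAT boxes, pentamers bound by the factor NF-Y, and for this reason 3 of them are printed. Each is the 250 bases before the RefSeq start of the gene in GRCm38.p6, written in the direction of transcription, with CCAAT and its reverse complement ATTGG in capitals. The positions are chr9:70421555-70421804 (minus strand) for Ccnb2, chr10:69352913-69353162 (minus strand) for Cdk1 and chr11:40733438-40733687 (minus strand) for Hmmr.
Ccnb2: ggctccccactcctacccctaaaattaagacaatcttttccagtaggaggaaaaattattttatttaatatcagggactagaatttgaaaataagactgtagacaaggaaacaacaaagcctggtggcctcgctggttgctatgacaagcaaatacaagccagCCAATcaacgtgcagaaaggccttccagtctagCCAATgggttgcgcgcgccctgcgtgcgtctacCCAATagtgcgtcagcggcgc
Cdk1: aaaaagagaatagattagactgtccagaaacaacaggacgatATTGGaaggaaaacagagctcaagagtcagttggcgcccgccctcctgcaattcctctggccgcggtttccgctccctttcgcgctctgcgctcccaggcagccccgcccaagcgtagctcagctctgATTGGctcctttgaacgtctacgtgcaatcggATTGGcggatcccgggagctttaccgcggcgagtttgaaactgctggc
Hmmr: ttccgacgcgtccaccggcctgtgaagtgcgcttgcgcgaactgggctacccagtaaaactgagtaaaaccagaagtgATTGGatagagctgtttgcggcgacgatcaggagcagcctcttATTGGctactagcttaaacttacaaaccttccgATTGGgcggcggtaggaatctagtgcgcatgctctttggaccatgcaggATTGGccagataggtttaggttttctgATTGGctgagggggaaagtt
In Ccnb2 the pentamers begin 87, 54 and 21 bases before the start, in Cdk1 208, 80 and 48 bases before it, and in Hmmr 172, 129, 96, 47 and 20 bases before it. Of the 33 cell cycle members with a window in the table, 26 (78.8%) held at least 1 copy on either strand, beside 4309 of 10650 genes tested that have a window (40.5%) and 10133 of all 27025 genes with a window (37.5%). Among members called lower the share was 7 of 9 (77.8%) and among members not called it was 19 of 24 (79.2%). A match describes letters in this window and no binding was measured here.

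A few adhesion and engulfment genes fell, and 2 of them, Itgav and Itgb5, stand in both lists. Of 17 myeloid integrin genes 4 were called lower (1.19% of all genes) and 0 higher, with 0 lower calls without day 60 replicate 1 or without day 90 replicate 1, 2 without day 60 replicate 2, and 6 without day 90 replicate 2. Itgav and Itgb5 encode the alpha and beta chains of a receptor for osteopontin and vitronectin that also helps to bind dying cells. Itgav was at 40.4 and 23.2 CPM at day 60, 46.1 and 43.2 CPM at day 90, and 329 and 88.6 CPM at day 7 (-2.24 ± 0.41, adjusted p = 0.0413). Itgb5 was at 506 and 490 CPM at day 60, 688 and 807 CPM at day 90, and 1711 and 1817 CPM at day 7 (-1.50 ± 0.29, adjusted p = 0.047). The chronic values of both lay below both day 7 values, and for Itgav the 2 day 7 libraries themselves stood well apart. The other called integrins were Itga6 (-1.54 ± 0.26), a laminin receptor chain, and Itgae (-2.58 ± 0.49), the chain that pairs with Itgb7 to bind E-cadherin. With a mean for each time the list had 0 higher and 9 lower at day 60 against day 7 (21.1% and 16.4% of all genes), and 2 higher and 5 lower at day 90 against day 7 (11.4% and 8.92% of all genes). The medians were -0.73 at day 60 and -0.03 at day 90. The 9 lower at day 60 were 4 without day 60 replicate 1 and 2 without day 60 replicate 2, and the day 90 median was -0.45 without day 90 replicate 2 and 0.16 without day 7 replicate 1.

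Of 19 engulfment receptor and bridging genes 3 were called lower (1.19% of all genes) and 0 higher (2.42%). They were Itgav, Itgb5 and Stab1, a scavenger receptor for phosphatidylserine on dying cells. Stab1 was at 99.5 and 125 CPM at day 60, 103 and 159 CPM at day 90, and 721 and 481 CPM at day 7 (-2.33 ± 0.30, adjusted p = 0.0176). 1 member of this list was called lower without day 60 replicate 1, without day 60 replicate 2 and without day 90 replicate 1, against 5 without day 90 replicate 2. The engulfment list had 3 higher and 9 lower at day 60 against day 7 (21.1% and 16.4% of all genes). It had 5 higher and 4 lower at day 90 against day 7 (11.4% and 8.92% of all genes). At day 90 against day 60 it had 8 higher and 0 lower (11.0% and 15.7% of all genes). The 9 lower at day 60 were 3 without day 60 replicate 1 and 2 without day 60 replicate 2. The 8 higher at day 90 than at day 60 were 1 without day 60 replicate 1 or without day 90 replicate 2, and 0 without day 60 replicate 2, where 4 had an unadjusted p under 0.05 in edgeR. In the lysosomal list of 40 genes, 2 fell and 2 rose, beside 1.19% called lower and 2.42% called higher over all genes. The count lower was 0 without day 60 replicate 1, 1 without day 90 replicate 1 and 8 without day 90 replicate 2. Those that fell were Glb1, the lysosomal beta-galactosidase (-1.44 ± 0.21, adjusted p = 0.0233), and Npc1, which exports cholesterol from lysosomes (-1.41 ± 0.26, adjusted p = 0.0432).

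Among microglial identity genes 1 of 25 fell and 1 rose, beside 1.19% called lower and 2.42% called higher over all genes. Fcrls, an Fc receptor-like gene restricted to microglia within the brain, was at 222 and 251 CPM at day 60, 300 and 282 CPM at day 90, and 1084 and 1607 CPM at day 7 (-2.33 ± 0.26, adjusted p = 0.0144). Fscn1, an actin-bundling protein, was at 34.2 and 31.1 CPM at day 60, 29.0 and 23.7 CPM at day 90, and 7.06 and 6.69 CPM at day 7 (2.10 ± 0.27, adjusted p = 0.0176). Both genes were separated from day 7 in every library, in opposite directions. Without day 90 replicate 2 the list had 4 lower calls. Tmem119 was at 182 and 96.2 CPM at day 60, 198 and 89.7 CPM at day 90, and 336 and 206 CPM at day 7 (-0.99 ± 0.21, adjusted p = 0.0548), with all chronic values below both day 7 values but no call. The purine receptor P2ry12 was at 174 and 99.3 CPM at day 60, 193 and 118 CPM at day 90, and 88.4 and 141 CPM at day 7 (0.28 ± 0.36), and its groups overlapped. The lineage factor Sall1 (-0.14 ± 0.41) and the fractalkine receptor Cx3cr1 (-0.83 ± 0.49) overlapped too, with adjusted p of 0.87 and 0.375.

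The protease Mmp12, macrophage elastase, had the clearest rise among abundant genes. It was at 2251 and 3022 CPM at day 60, 2192 and 2807 CPM at day 90, and 26.5 and 63.2 CPM at day 7. Every chronic library exceeded both day 7 libraries by a wide margin, with a fold change of 5.93 ± 0.41 against day 7 (adjusted p = 0.00402) and of -0.07 for day 90 against day 60 (adjusted p = 0.839). Among 30 matrix protease, inhibitor and matrix genes the only other called gene was Mmp25, a membrane-bound metalloproteinase of leukocytes (2.37 ± 0.44, adjusted p = 0.0421), and 0 were called lower. Without day 60 replicate 1 or without day 90 replicate 1, 1 member of this list was called, and without day 90 replicate 2 there were 3 higher and 7 lower.

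Ctsk, which encodes cathepsin K, a collagen-cutting lysosomal protease of osteoclasts, was at 107 and 474 CPM at day 60, 223 and 321 CPM at day 90, and 11.9 and 9.18 CPM at day 7 (4.55 ± 0.61, adjusted p = 0.0198). Atp6v0d2, a proton pump subunit also typical of osteoclasts and of fused macrophages, was at 855 and 719 CPM at day 60, 949 and 750 CPM at day 90, and 171 and 163 CPM at day 7 (2.29 ± 0.26, adjusted p = 0.0144). These were the 2 lysosomal genes that rose, and in both all chronic libraries were above day 7. The largest rises also took in H2-M2, an MHC class Ib gene, at 57.8 and 39.6 CPM at day 60, 102 and 72.0 CPM at day 90, and 0.377 and 1.15 CPM at day 7 (6.33 ± 0.70, adjusted p = 0.0144). Lilra5, a leukocyte immunoglobulin-like receptor, was between 28.5 and 37.8 CPM in the chronic libraries, against 1.18 and 0.955 CPM at day 7 (4.97 ± 0.33, adjusted p = 0.00402). Slamf8, a SLAM-family receptor of macrophages, was between 97.5 and 153 CPM in the chronic libraries, against 9.60 and 6.81 CPM at day 7 (3.97 ± 0.33, adjusted p = 0.0076).

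Among the 12 largest rises were also Clec4a1 and Clec4a3, C-type lectin receptors of myeloid cells. Clec4a1 was at 81.6 and 164 CPM at day 60, 35.1 and 59.8 CPM at day 90, and 3.01 and 4.47 CPM at day 7 (4.47 ± 0.63, adjusted p = 0.0226). Clec4a3 was at 422 and 1487 CPM at day 60, 184 and 561 CPM at day 90, and 18.5 and 70.1 CPM at day 7 (3.95 ± 0.60, adjusted p = 0.0263). All chronic libraries were above day 7 in both, and day 90 was below day 60 within each replicate number.

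**Figure D3:**
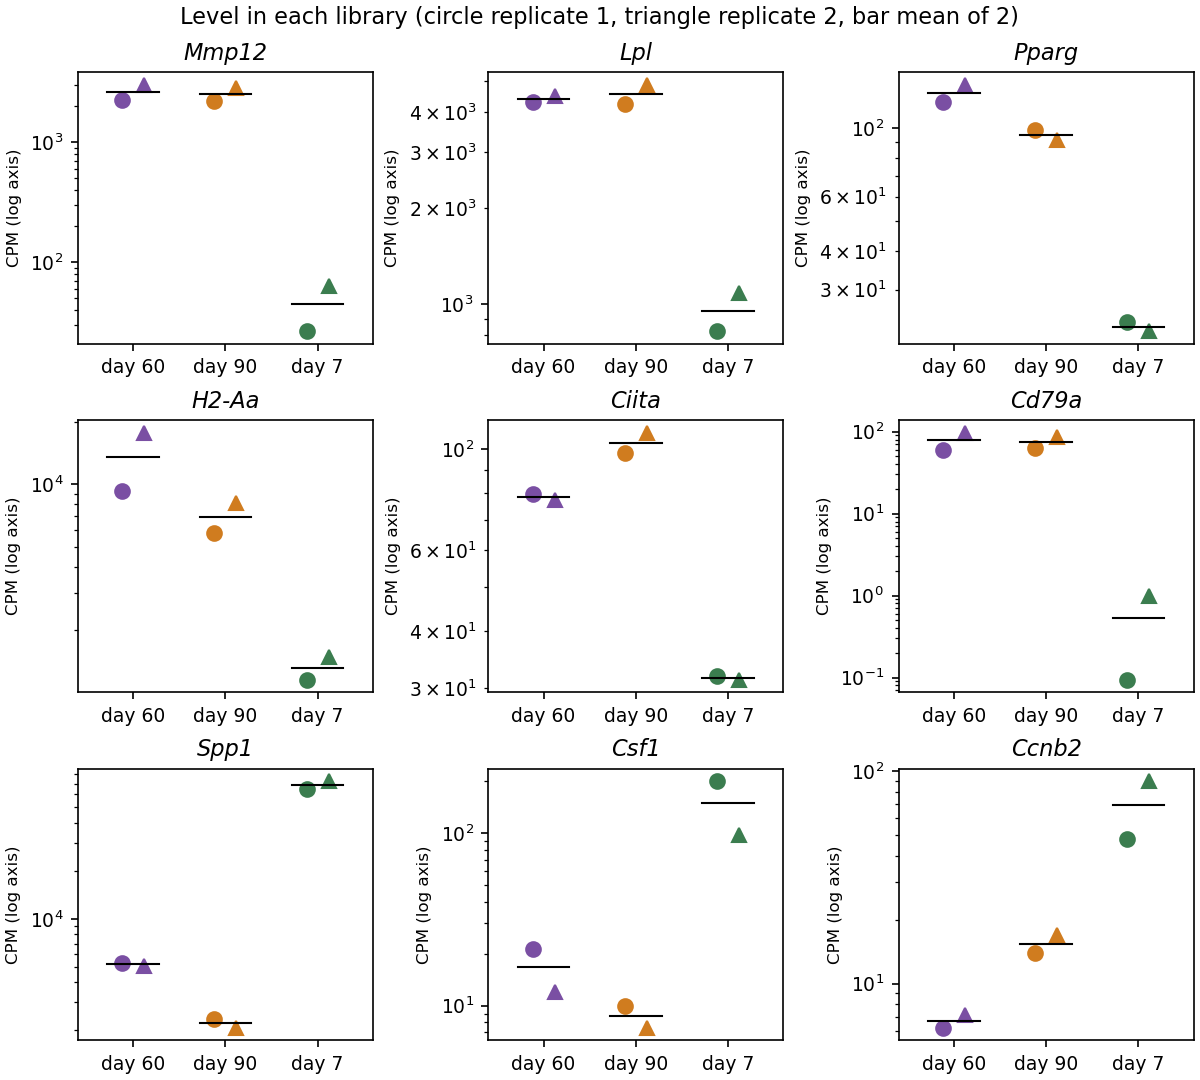
Level of 9 genes in each library, in CPM on a log axis, for day 60, day 90 and day 7 from left to right, with a circle for replicate 1, a triangle for replicate 2 and a bar at the mean of both. Mmp12, Lpl, Pparg, H2-Aa, Ciita and Cd79a are higher in every library of days 60 and 90 than in those of day 7, and Spp1, Csf1 and Ccnb2 are lower.

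Some enzymes and carriers of lipid rose. Of 30 genes of lipid uptake, transport and droplets 4 were called higher (2.42% of all genes) and 0 lower, with a list median of 0.29 beside 0.10 over all genes. At day 60 against day 7 there were 13 higher and 4 lower (21.1% and 16.4% of all genes) with a median of 0.53. At day 90 against day 7 there were 9 higher and 5 lower (11.4% and 8.92% of all genes). The day 90 median was -0.05, which is 0.01 with upper-quartile scaling. The 13 higher at day 60 were 6 without day 60 replicate 2, and the 5 lower at day 90 were 8 without day 7 replicate 2. Lpl, the lipase that frees fatty acids from lipoproteins, was at 4309 and 4491 CPM at day 60, 4232 and 4881 CPM at day 90, and 823 and 1082 CPM at day 7 (2.24 ± 0.30, adjusted p = 0.018). Pltp, a phospholipid transfer protein, was at 2349 and 6098 CPM at day 60, 1285 and 2884 CPM at day 90, and 167 and 366 CPM at day 7 (3.53 ± 0.50, adjusted p = 0.0226). All chronic libraries exceeded day 7 in both, Lpl within 4232 to 4881 CPM and Pltp with day 90 below day 60 (-0.98, adjusted p = 0.00188). Mgll, which splits monoglycerides, rose by 4.53 ± 0.55 (adjusted p = 0.0166), and Fabp4, a fatty acid carrier of adipocytes and lipid-laden macrophages, by 3.56 ± 0.65 (adjusted p = 0.0417). Fabp4 was at 117 and 204 CPM at day 60, 46.9 and 65.6 CPM at day 90, and 8.19 and 9.77 CPM at day 7.

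Pparg, a fatty acid-sensing nuclear receptor whose known targets include Fabp4 and Lpl, was at 122 and 139 CPM at day 60, 99.1 and 91.5 CPM at day 90, and 23.5 and 21.9 CPM at day 7 (2.31 ± 0.29, adjusted p = 0.0166). Nr1h3, the oxysterol receptor LXR alpha, was at 116 and 171 CPM at day 60, 80.1 and 99.6 CPM at day 90, and 35.0 and 25.7 CPM at day 7 (1.92 ± 0.38, adjusted p = 0.0498). They were the 2 called of 19 lipid-sensing nuclear receptors and partners, with 0 lower, and 1 of them was called without day 60 replicate 1, while without day 90 replicate 2 the list had 2 higher and 4 lower calls. The scavenger receptor Cd36 did not pass, at 606 and 664 CPM at day 60, 978 and 1068 CPM at day 90, and 785 and 453 CPM at day 7 (0.45 ± 0.38, adjusted p = 0.53). Apoe, the main lipoprotein of the brain, was at 82620 and 88990 CPM at day 60, 35750 and 35250 CPM at day 90, and 29410 and 57900 CPM at day 7 (0.53 ± 0.58, adjusted p = 0.636). Day 90 values of Apoe lay between the day 7 values, and those of day 60 above both.

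Genes of the disease-associated microglial program were called in both directions. Of 30 members 2 were called higher, Lpl and the chemokine Ccl6 (2.42% of all genes). Called lower were 2, Spp1 and Csf1 (1.19% of all genes), with 4 lower without day 90 replicate 2. At day 60 against day 7, 14 were higher and 7 lower (21.1% and 16.4% of all genes), with a median of 0.58. At day 90 against day 7, 6 were higher and 12 lower (11.4% and 8.92%), with a median of -0.45. At day 90 against day 60, 3 were higher and 19 lower (11.0% and 15.7%). Without the replicate block the counts were 5 and 3, 2 and 2, and 0 and 0 in the same order. Gpnmb, a glycoprotein of lipid-laden phagocytes, was at 7501 and 6770 CPM at day 60, 7527 and 7653 CPM at day 90, and 15650 and 13960 CPM at day 7 (-1.01 ± 0.28, adjusted p = 0.104). All its chronic values were below both day 7 values without a call. The lipid receptor Trem2 (0.35 ± 0.40, adjusted p = 0.652), the fatty acid carrier Fabp5 (0.63 ± 0.62, adjusted p = 0.594) and the growth factor Igf1 (-0.19 ± 0.31, adjusted p = 0.758) had overlapping groups.

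MHC class II genes, which display peptides to CD4 T cells, were among those that rose. Of 17 genes tested 9 were called higher (2.42% of all genes) and 0 lower, and the median was 1.52 beside 0.10 over all genes. H2-Aa, the alpha chain of I-A, was at 9330 and 17670 CPM at day 60, 5859 and 8093 CPM at day 90, and 1152 and 1475 CPM at day 7 (2.92 ± 0.49, adjusted p = 0.0351). Cd74, the invariant chain that escorts class II molecules, was at 33170 and 65900 CPM at day 60, 18490 and 33920 CPM at day 90, and 4809 and 7713 CPM at day 7 (2.56 ± 0.50, adjusted p = 0.047). In both genes all chronic libraries were above day 7 and day 60 was above day 90 within each replicate number. Ciita, the transactivator that switches class II genes on, was at 79.7 and 77.5 CPM at day 60, 98.0 and 108 CPM at day 90, and 31.9 and 31.3 CPM at day 7 (1.52 ± 0.26, adjusted p = 0.0351).

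H2-Eb1 (2.67 ± 0.44) and H2-Ab1 (2.48 ± 0.49), chains of the same antigen-presenting molecules, and the peptide-loading gene H2-DMa (1.74 ± 0.35) rose with them. H2-Eb2, H2-DMb1 and H2-DMb2 were called as well, but their chronic and day 7 values overlapped, with replicate 2 higher than replicate 1 at all times. H2-Eb2 was at 4.94 and 547 CPM at day 60, 3.53 and 337 CPM at day 90, and 0.565 and 39.8 CPM at day 7. Within each replicate number the chronic values of H2-Eb2 were above day 7. H2-Eb2 and H2-DMb2 belong to 117 genes that were at least 8-fold higher in replicate 2 at all 3 times, and whether both replicate series were counted alike was not tested. Without these 2 genes the list has 7 called members. The list had 2 called members without day 60 replicate 1, 5 without day 90 replicate 1, 7 without day 60 replicate 2 and 11 without day 90 replicate 2, and 1 without the replicate block. B cells also transcribe these genes, and summed B cell markers moved with them, at 641 and 433 CPM at day 60, 1570 and 973 CPM at day 90, and 121 and 106 CPM at day 7. B cell sums, which are not TMM scaled, were higher at day 90 than at day 60, while H2-Aa and Cd74, which are, were lower at day 90. With TMM scaling 4 of the 11 B cell markers were called higher at day 90 than at day 60 (11.0% of all genes) and 0 lower. The plasma cell gene Igj was among them, while Cd79a and Faim3 were at similar levels at both times. The part of B cells in the class II values was not tested.

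The 250 bases before the RefSeq starts of H2-Aa and H2-Eb1 in GRCm38.p6 are printed because these genes moved together and because class II promoters are known to carry a Y box, a CCAAT box, close to the start. H2-Aa lies at chr17:34287824-34288073 (minus strand) and H2-Eb1 at chr17:34305617-34305866 (plus strand), and CCAAT or its reverse complement ATTGG is in capitals.
H2-Aa: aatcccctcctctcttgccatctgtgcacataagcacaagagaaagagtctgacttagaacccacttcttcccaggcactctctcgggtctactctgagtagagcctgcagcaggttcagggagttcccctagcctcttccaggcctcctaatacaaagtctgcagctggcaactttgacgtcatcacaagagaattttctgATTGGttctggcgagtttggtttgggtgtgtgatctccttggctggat
H2-Eb1: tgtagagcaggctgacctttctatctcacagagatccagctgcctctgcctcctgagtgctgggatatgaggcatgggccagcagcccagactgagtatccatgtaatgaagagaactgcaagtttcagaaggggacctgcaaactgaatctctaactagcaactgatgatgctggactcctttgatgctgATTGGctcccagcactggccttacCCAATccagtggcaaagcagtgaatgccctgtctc
In H2-Aa the pentamer begins 48 bases before the start and in H2-Eb1 it begins 59 and 35 bases before it. Only 13 of the 17 class II members had a window in the table, so no share over the list is given.

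Chemokines were among the genes that rose. Of 21 CC and CXC chemokines 6 were called higher (2.42% of all genes) and 1 lower, with a median of 1.94. Ccl6 was at 1504 and 1631 CPM at day 60, 915 and 715 CPM at day 90, and 83.5 and 89.1 CPM at day 7 (3.79 ± 0.49, adjusted p = 0.0176). Ccl9, which like Ccl6 is a rodent chemokine, was at 806 and 936 CPM at day 60, 417 and 319 CPM at day 90, and 87.9 and 64.7 CPM at day 7 (3.03 ± 0.57, adjusted p = 0.0442). For both, all chronic libraries were above day 7 and day 90 was below day 60. Cxcl13, which attracts B cells, was at 14.3 and 13 CPM at day 60, 7.57 and 6.01 CPM at day 90, and 0.330 and 0.843 CPM at day 7 (4.05 ± 0.64, adjusted p = 0.0288).

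Cxcl16 (2.01 ± 0.38), Ccl17 (2.58 ± 0.52) and Ccl22 (1.94 ± 0.37) also rose, the last 2 being ligands of Ccr4 on T cells. Cxcl14 fell (-1.80 ± 0.28, adjusted p = 0.0288). The list had 2 higher calls without day 60 replicate 1 and 10 without day 90 replicate 2. The monocyte attractant Ccl2 was at 18.7 and 22.1 CPM at day 60, 4.79 and 5.62 CPM at day 90, and 70.2 and 70.0 CPM at day 7, and did not pass (-2.46 ± 0.64, adjusted p = 0.091). Its 4 chronic values were nevertheless all below day 7. Outside the list, Cxcl12, the ligand of Cxcr4, was at 55.1 and 24.1 CPM at day 60, 98.0 and 48.0 CPM at day 90, and 2.35 and 3.59 CPM at day 7 (4.05 ± 0.61, adjusted p = 0.0263).

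Of 16 chemokine receptors 5 were called higher (2.42% of all genes), among them Cxcr5, Ccr3, Ccr6 and Ccr7, and 0 lower (1.19%). Ccr7, which guides dendritic cells and T cells to lymph nodes, was at 229 and 154 CPM at day 60, 141 and 88.9 CPM at day 90, and 30.7 and 21.3 CPM at day 7 (2.55 ± 0.36, adjusted p = 0.0229). Cxcr5, the receptor for Cxcl13 on B cells, was at 5.09 and 1.83 CPM at day 60, 9.02 and 5.20 CPM at day 90, and 0.424 and 0.377 CPM at day 7 (3.56 ± 0.65, adjusted p = 0.0413). Several of these receptors mark lymphocytes, whose marker sums rose in the same libraries, and the part of lymphocytes was not tested. Without day 60 replicate 1 there were 2 called receptors and without day 90 replicate 1 there were 3. Ccr2, the receptor of inflammatory monocytes, did not pass (0.81 ± 0.26, adjusted p = 0.139).

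Among 17 alternative activation genes 4 were called higher (2.42% of all genes) and 0 lower (1.19%), with a median of 1.78. Mrc1, the mannose receptor, was at 97.3 and 107 CPM at day 60, 220 and 292 CPM at day 90, and 12 and 13.7 CPM at day 7 (3.79 ± 0.59, adjusted p = 0.0283). All chronic libraries were above day 7, and day 90 above day 60 (1.32, adjusted p = 0.000547). The others were Ccl17, Ccl22 and Pdcd1lg2, a ligand of the inhibitory receptor PD-1 (3.41 ± 0.59, adjusted p = 0.0371). Arginase, Arg1, was at 0.340 to 2.23 CPM in the chronic libraries, against 4.0 and 3.59 CPM at day 7, and did not pass (-1.54 ± 0.68, adjusted p = 0.251). Without day 60 replicate 1 the list had 1 call, without day 60 replicate 2 it had 2 and without day 90 replicate 2 it had 9. Mrc1 is also a marker of border-associated macrophages. Their 12 summed markers ranged from 1710 to 2490 CPM in the chronic libraries and from 1840 to 2610 CPM at day 7. This sum covers members that moved apart, with 1 called higher, Mrc1, and 1 called lower, Stab1. All chronic libraries were above day 7 in 2 of the 12 markers and below it in 3 (14.9% and 11.8% of all genes).

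Complement genes called higher were Cd55, Serping1 and C4b, 3 of 18 (2.42% of all genes), with 0 lower (1.19%). Serping1, the C1 inhibitor, was at 45.3 and 36.0 CPM at day 60, 61.2 and 61.5 CPM at day 90, and 1.70 and 6.94 CPM at day 7 (3.69 ± 0.62, adjusted p = 0.034). Cd55, which shields cells from complement, rose by 4.25 ± 0.75 (adjusted p = 0.0392). Without day 90 replicate 2 the list had 5 higher calls and 1 lower. C4b is uncertain, since 34.6% of its 50-base words occur in another gene, C4a sharing the most. Its groups also overlapped, with replicate 2 higher at all times. The central component C3 was at 81.8 and 121 CPM at day 60, 73.0 and 148 CPM at day 90, and 48.2 and 31.0 CPM at day 7, with all chronic libraries above day 7 and no call (1.34 ± 0.38, adjusted p = 0.107).

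Of 26 inflammatory cytokines and NF-kB targets, Traf1 (2.54 ± 0.33, adjusted p = 0.0188) and Relb (1.47 ± 0.25, adjusted p = 0.0369), both components of NF-kB signalling, were called higher and 0 lower. That list had 1 call without day 60 replicate 1 or without day 60 replicate 2, and 8 without day 90 replicate 2. Il1b was at 2547 and 3483 CPM at day 60, 1162 and 1266 CPM at day 90, and 345 and 420 CPM at day 7 (2.46 ± 0.56, adjusted p = 0.0646). Its 4 chronic libraries were all above day 7 without a call in the pooled test. Tnf was at 430 and 409 CPM at day 60, 85.6 and 66.7 CPM at day 90, and 201 and 156 CPM at day 7 (0.48 ± 0.83, adjusted p = 0.772), with day 60 above and day 90 below both day 7 libraries.

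The inducible heat shock genes Hspa1a (2.90 ± 0.39) and Hspa1b (3.08 ± 0.37) rose, with adjusted p of 0.0199 and 0.0166. Of their 50-base words 60.3% and 62.3% occur in another gene, and each shares the most with the other, so they are given as a pair. In the same list of 24 immediate early genes Egr1, a transcription factor induced within minutes of stimulation, was at 202 and 87.1 CPM at day 60, 238 and 115 CPM at day 90, and 484 and 394 CPM at day 7 (-1.57 ± 0.27, adjusted p = 0.0373). Among 24 glycolysis and hypoxia genes Ndrg1, a hypoxia-induced gene, rose (2.09 ± 0.23, adjusted p = 0.0142), while Hif1a, the oxygen-sensing factor (-1.18 ± 0.20, adjusted p = 0.0359), and Pfkl, the liver form of phosphofructokinase (-1.18 ± 0.20, adjusted p = 0.0364), fell. Neither Egr1, Hif1a nor Pfkl was called without day 60 replicate 1 or without day 60 replicate 2. Other called list members were Inhba (3.23 ± 0.63) and Bmp2 (3.35 ± 0.66), ligands of the TGF-beta family, the dendritic cell factor Batf3 (3.00 ± 0.52), the neonatal Fc receptor Fcgrt (1.18 ± 0.23), and Gsr, glutathione reductase (1.36 ± 0.23). All of these had their 4 chronic libraries above both day 7 libraries. Inhba and Bmp2 were both uncalled without day 90 replicate 1, and Batf3 was uncalled without day 60 replicate 1. The oxidative stress gene Hmox1, heme oxygenase 1, did not pass (0.12 ± 0.32, adjusted p = 0.856).

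Several lists had 0 calls in the pooled comparison by edgeR. At an unadjusted p under 0.05 the numbers higher and lower were 0 and 0 of 58 oxidative phosphorylation genes, 1 and 0 of 71 cytosolic ribosomal protein genes, 0 and 1 of 31 proteasome genes, 0 and 2 of 24 cholesterol synthesis genes, 3 and 3 of 22 unfolded protein response genes, 4 and 0 of 15 Toll-like receptors, and 2 and 0 of 16 inflammasome genes. DESeq2 called 0, 0, 1, 0, 4, 3 and 1 members of these lists in the same order. Of all 13366 genes tested, 2881 had an unadjusted p under 0.05 in edgeR and 1951 were called by DESeq2. Such counts of list members, here and for the cell markers below, are to be read against these totals.

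Transcripts of lymphocytes were far higher in the chronic libraries. Of 11 B cell markers 7 were called higher (2.42% of all genes) and 0 lower (1.19%). Their median was 5.43, where genes without a count were set at a floor of 3 counts over the group. Cd79a, a signalling chain of the B cell receptor, was at 60.1 and 96.7 CPM at day 60, 62.6 and 87.0 CPM at day 90, and 0.0942 and 0.979 CPM at day 7 (7.2 ± 0.63, adjusted p = 0.0076). Igj, the joining chain of secreted antibody and a gene of plasma cells, was at 356 and 250 CPM at day 60, 821 and 448 CPM at day 90, and 2.97 and 3.06 CPM at day 7 (7.2 ± 0.64, adjusted p = 0.00827). Both were at or below about 3 CPM in the day 7 libraries and far above that in all chronic ones. Faim3, the IgM Fc receptor, had 0 and 2 counts in the day 7 libraries, too few for a fold change, and was at 37.6 and 51.5 CPM at day 60 and 38.2 and 47.0 CPM at day 90.

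Of 19 T and NK cell markers 8 were called higher (2.42% of all genes) and 0 lower (1.19%), with a median of 2.49. Cd3g, Cd3d and Cd3e, chains of the T cell receptor complex, rose by 3.97 ± 0.49, 3.63 ± 0.52 and 3.22 ± 0.61, and the adhesion gene Cd2 by 3.52 ± 0.31 (adjusted p = 0.0076). Cd3g was at 13.9 and 23.5 CPM at day 60, 13.5 and 25.8 CPM at day 90, and 0.377 and 2.46 CPM at day 7. The summed list was at 302 and 213 CPM at day 60, 475 and 393 CPM at day 90, and 104 and 83.5 CPM at day 7, so all chronic libraries were above day 7. The count of T and NK calls was 4 without day 60 replicate 1, and 2 without the replicate block. Gimap3, a GTPase of lymphocytes, also belonged to the 12 largest rises, at 22.3 and 13.9 CPM at day 60, 43.2 and 25.7 CPM at day 90, and 0.706 and 2.61 CPM at day 7 (3.89 ± 0.75, adjusted p = 0.0459).

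Markers of other cells were mixed. The 15 neutrophil markers summed to 863 and 948 CPM at day 60, 4600 and 4240 CPM at day 90, and 406 and 956 CPM at day 7, so that only day 90 was above both day 7 libraries. None of the 15 was called in the pooled comparison by edgeR, with 10 higher at an unadjusted p under 0.05 and 10 called by DESeq2. Gene by gene, 9 of the 15 had all 4 chronic libraries above both day 7 libraries (14.9% of all genes), and 0 had all below (11.8%). The list median was 3.01 in the pooled comparison beside 0.10 over all genes, and it was 2.51 at day 60 and 2.96 at day 90. With a mean for each time, 3 were higher and 2 lower at day 60 (21.1% and 16.4% of all genes). At day 90, 4 were higher and 0 lower (11.4% and 8.92%). Mast cell and basophil markers summed to 61.1 and 46.4 CPM at day 60, 102 and 93.6 CPM at day 90, and 11.4 and 14.7 CPM at day 7. Of the 10 mast cell genes 0 were called by edgeR, 5 were higher and 1 lower at an unadjusted p under 0.05, and DESeq2 called 5. Treml4 (2.91 ± 0.34, adjusted p = 0.0166), a marker of patrolling monocytes, was among the 2 called of 15 monocyte markers, with 1 called without day 60 replicate 1 or without day 60 replicate 2 and 4 without day 90 replicate 2. The matrix proteoglycan genes Dcn (3.75 ± 0.46, adjusted p = 0.0166) and Lum (3.37 ± 0.65, adjusted p = 0.0459) rose. They were the 2 called higher of 12 pericyte and fibroblast markers (2.42% of all genes), with 0 lower (1.19%) and a median of 0.36. The list was mixed at day 60 against day 7, with 2 higher and 4 lower (21.1% and 16.4% of all genes). At day 90 it had 3 higher and 1 lower (11.4% and 8.92%). Cspg4, a marker of oligodendrocyte precursors and pericytes, fell (-4.99 ± 0.62, adjusted p = 0.0166), as did the endothelial receptor gene Flt1 (-1.76 ± 0.26, adjusted p = 0.0249). Each was the only call of its list, of 10 oligodendrocyte and precursor markers and of 13 endothelial markers (1.19% of all genes called lower). The medians of these lists were 0.40 and -0.54. All chronic libraries were above day 7 in 1 and 2 members and below it in 1 and 3 (14.9% and 11.8% of all genes). The day 7 level of Cspg4 was 21.9 and 8.77 CPM, and its chronic levels were all below 1 CPM. Of 11 astrocyte, 9 neuronal and 2 erythroid markers edgeR called 0, with 1, 1 and 0 at an unadjusted p under 0.05, and DESeq2 called 1, 1 and 0. Summed neuronal markers lay between 3.06 and 1190 CPM in the chronic libraries and between 0.917 and 1.57 CPM at day 7, the high values being Camk2a in replicate 2 of days 60 and 90. Pericyte and fibroblast sums were 117 and 1440 CPM at day 60, 241 and 1380 CPM at day 90, and 99.9 and 193 CPM at day 7. Most of the replicate 2 sums of days 60 and 90 was Pdgfrb. Its unscaled level was 2.91 and 1350 CPM at day 60, 8 and 1120 CPM at day 90, and 1.89 and 3.08 CPM at day 7.

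**Figure D4:**
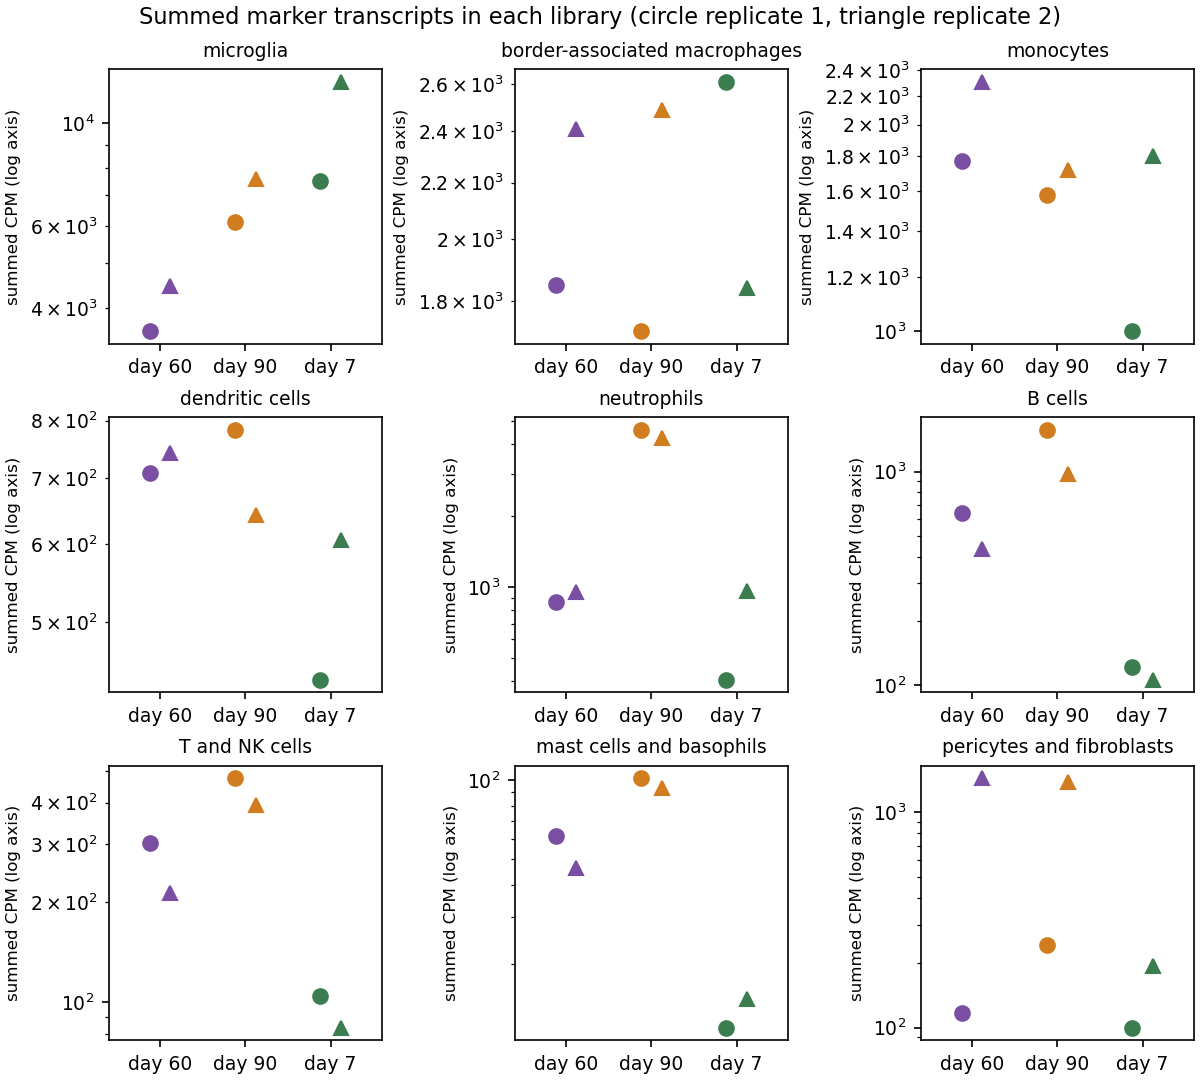
Summed CPM of 9 marker lists in each library on a log axis, for day 60, day 90 and day 7 from left to right, with a circle for replicate 1 and a triangle for replicate 2. B cell sums lie between 433 and 1570 CPM at days 60 and 90, against 106 and 121 CPM at day 7, and neutrophil sums are 4600 and 4240 CPM at day 90, above all other libraries. The pericyte and fibroblast sums of 1440 and 1380 CPM in replicate 2 of days 60 and 90 are mostly Pdgfrb, at 1350 and 1120 CPM.

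The chronic times differed from each other in part. With a mean for each time, 5017 genes (37.5%) differed between day 60 and day 7 and 2722 (20.4%) between day 90 and day 7, comparisons that share the day 7 libraries. Day 60 had 2819 genes higher (21.1%) and 2198 lower (16.4%), and day 90 had 1530 higher (11.4%) and 1192 lower (8.92%). Between day 90 and day 60, 3566 genes (26.7%) differed, 1464 higher at day 90 (11.0%) and 2102 lower (15.7%). Over all genes 1745 were called in the same direction at both times and 97 in opposite directions. The 482 pooled calls come from the same libraries, so that 481 of them are among the 1745 is no separate support, and 87 of them differed between day 90 and day 60. The day 90 against day 60 result depended on single libraries. Without day 60 replicate 2 edgeR called 0 genes (2412 at an unadjusted p under 0.05), without day 90 replicate 2 it called 605 and without day 60 replicate 1 it called 1037. Without the replicate block it called 0 (2108 at an unadjusted p under 0.05), while on the 6 libraries with the block DESeq2 called 4076 and limma-voom 4344.

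Interferon-response genes set day 60 apart. Of 30 members 26 were higher and 0 lower at day 60 against day 7 (21.1% and 16.4% of all genes), 3 were higher and 12 lower at day 90 against day 7 (11.4% and 8.92% of all genes), and 24 were lower and 0 higher at day 90 against day 60 (15.7% and 11.0% of all genes). The median was 1.47 at day 60 and -0.54 at day 90, each against day 7. The 26 higher at day 60 were 17 without day 60 replicate 2 and 12 without the replicate block. The 12 lower at day 90 were 4 without day 90 replicate 2, 7 without day 7 replicate 2 and 20 without day 7 replicate 1, and without the replicate block edgeR called 0 (5 at an unadjusted p under 0.05). Isg15, an interferon-induced ubiquitin-like protein, was at 68.1 and 55.2 CPM at day 60, 6.58 and 4.04 CPM at day 90, and 11.3 and 15.5 CPM at day 7, and the change between day 90 and day 60 was -3.57 (adjusted p = 6.63e-05). Cxcl10, an interferon-induced chemokine, was at 218 and 171 CPM at day 60, 37.6 and 25.4 CPM at day 90, and 27.3 and 36.4 CPM at day 7. Day 60 stood above both other times in these genes, in both replicates. Rtp4, Ifit1, Pydc4 and Ifi27l2a, all induced by interferon, and Ly6i were lower at day 90 than at day 60 by -3.24, -3.13, -3.31, -3.57 and -3.73. The 24 lower calls were 20 without day 60 replicate 1, 20 without day 90 replicate 2 and 0 without day 60 replicate 2, where 25 had an unadjusted p under 0.05. In the pooled comparison only the guanylate-binding genes Gbp2 (2.02 ± 0.36, adjusted p = 0.0395) and Gbp3 (1.30 ± 0.25, adjusted p = 0.0467) were called, and neither was called without day 60 replicate 1 or without day 60 replicate 2.

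Energy and translation genes had opposite signs at the chronic times. Of 58 oxidative phosphorylation genes 26 were higher and 1 lower at day 60 against day 7 (21.1% and 16.4% of all genes), 0 were higher and 29 lower at day 90 against day 7 (11.4% and 8.92%), and 51 were lower at day 90 than at day 60 (15.7%). The median was 0.52 at day 60 and -0.68 at day 90, each against day 7. The 26 higher were 16 without day 60 replicate 1 and 0 without day 60 replicate 2 (10 at an unadjusted p under 0.05), and the 29 lower were 11 without day 90 replicate 2. The 51 lower at day 90 than at day 60 were 33 without day 90 replicate 2 and 0 without day 60 replicate 2 (47 at an unadjusted p under 0.05). Of 71 cytosolic ribosomal protein genes 25 were higher at day 60 against day 7, 11 were lower at day 90 against day 7, and 45 were lower at day 90 than at day 60, read against the same shares of all genes. Their median was 0.76 at day 60 and -0.39 at day 90. The 25 higher were 2 without day 60 replicate 2, and the 11 lower were 1 without day 90 replicate 2 and 23 without day 7 replicate 1. The 45 lower at day 90 than at day 60 were 26 without day 60 replicate 1, 12 without day 90 replicate 2 and 0 without day 60 replicate 2 (29 at an unadjusted p under 0.05). Without the replicate block edgeR called 0 members of either list at either time, with 1 and 9 higher at day 60 and 14 and 8 lower at day 90 at an unadjusted p under 0.05, while DESeq2 with the block called 26 and 25 higher at day 60 and 31 and 15 lower at day 90. With day 60 replicate 2 left out 0 members of either list were called between day 90 and day 60 by edgeR, with 47 and 29 lower at an unadjusted p under 0.05, while with day 90 replicate 2 left out 33 and 12 were called lower. The scaling factors of the libraries also differed, being 0.966 and 0.694 in the day 60 libraries, 1.30 and 1.08 in those of day 90, and 1.15 and 0.929 in those of day 7, and their part in these medians was not tested beyond other scalings, under which the medians kept their sign.

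**Figure D5:**
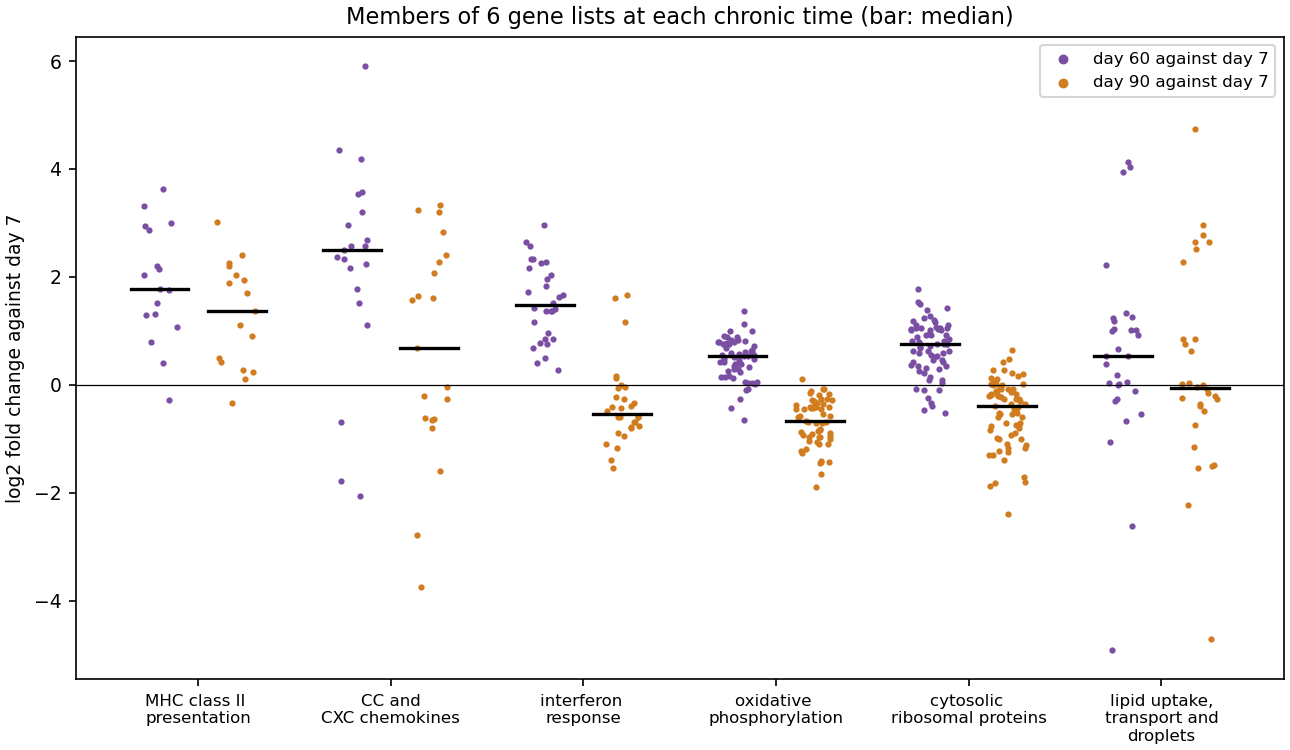
Each point is a member of 1 of 6 gene lists, with its log2 fold change against day 7 on the vertical axis, day 60 in purple left and day 90 in orange right, and a bar at the median. The MHC class II medians are 1.78 and 1.36, while the interferon medians are 1.47 and -0.54 and the oxidative phosphorylation medians 0.52 and -0.68.

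The genes most above day 60 at day 90 belonged to several groups. Cd177 and Camp, transcripts of neutrophils and their precursors, were higher by 2.98 and 2.25, beside the day 90 rise of the neutrophil sum. Cd177 was at 16.2 and 28.4 CPM at day 60, 129 and 221 CPM at day 90, and 30.2 and 55.8 CPM at day 7. The fibrillar collagen genes Col3a1 and Col1a2 were higher at day 90 than at day 60 by 2.17 and 2.14, and Prc1, a protein of the spindle midzone, by 2.28. Mamdc2 was at 21.9 and 16.1 CPM at day 60, 90.8 and 92.7 CPM at day 90, and 17.0 and 18.2 CPM at day 7, so that only day 90 stood apart (2.29 against day 60, adjusted p = 0.000101).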

How the data were processed

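RNA of sorted cortical microglia was compared between 4 libraries of days 60 and 90 and 2 libraries of day 7 after stroke. The groups and replicate numbers came from the sample titles. The members and gene lists were chosen with earlier results of these data known.

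The authors deposited raw counts, as whole numbers of reads for each gene, and all 14084 values agreed between the table of the series and each of the 14 files of single libraries, in which 23 symbols had turned into dates. The submitters' processing notes name Bowtie2 2.3.4.2, HTSeq 0.6.1 and, as genome build, mm9. Annotation, strand setting and sort gate were not given in the sources used here, so a gene's reads cannot be told apart from those of an overlapping or antisense neighbour.

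Models were fitted with edgeR 4.0.16 in R 4.3.3, with DESeq2 1.42.0 and limma 3.58.1 as alternatives, and tables and plots were made with Python 3.11.15, pandas 2.3.3, numpy 2.4.6 and matplotlib 3.10.9. The filter by expression kept 13366 genes and removed 718. A robust quasi-likelihood model with TMM scaling, days 60 and 90 as 1 group and the replicate number as a block left 3 residual degrees of freedom, with a biological coefficient of variation of 0.397. Calls required a p under 0.05 after Benjamini-Hochberg adjustment across every gene tested. A fit with a mean for each time gave the values of day 60, of day 90 and of day 90 against day 60. The SE was taken from the fold change and the F statistic, as its absolute value over the root of F. Log2 CPM use a prior count of 2, and a gene with no count in a group enters a list median at a floor of 3 counts over the group.

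The replicate numbers were taken to pair the libraries, since deviations of same-numbered libraries from their group means correlated across genes with r of 0.709 between days 60 and 90, 0.656 between days 90 and 7, and 0.601 between days 60 and 7. Depth was 6.60 to 7.25 times higher for replicate 2 than for replicate 1. Replicates of a time correlated across genes with r of 0.919 at day 60, 0.933 at day 90 and 0.917 at day 7.

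Named genes are the 12 called genes with the largest change in each direction where groups did not overlap and the mean level was at least 3 on the log2 CPM scale, at most 4 called genes per list and direction, a fixed panel given whatever its result, and the 6 genes with the largest change in each direction between days 90 and 60. Further called members of a list, the members of its count, and the genes of the other observations were chosen after their values were seen. A few list members enter the counts and sums but are not reported here by name. Copies were sought as 50-base words of a gene's transcripts that also occur in another gene. Promoter sequences are those of RefSeq for GRCm38.p6, another build than that of the counts. In simulated counts on the 13366 genes of the chronic against day 7 comparison, edgeR called 33 of 50 genes raised 4-fold and 26 of 50 lowered to 0.25, but 0 of 50 raised 2-fold and 1 of 50 lowered to 0.5, with 5 false calls among 65 calls. The changed genes were drawn from those with a mean count above 50. The simulated counts follow the fitted model, in which a replicate effect is the same at every time. Genes whose replicate effect differs between times were therefore not simulated. The alternatives were other scalings, filters, tests, sets of libraries, thinning to equal depth, no block and leaving out each library.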

Additional observations from a re-analysis of the deposited data

Results flagged for a closer look

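Of 121 named genes, 56 differed between days 90 and 60 in their change from day 7, and 1 had a library apart from the rest of its group. Some of the 121, such as Cd177 and Ly6i, were named because of a large change between days 90 and 60. Part of the count of 56 was therefore fixed by the choice of genes. For this reason it cannot be read against the 26.7% of all genes that differed between days 90 and 60. All 56 differences below are log2 fold changes of day 90 against day 60 with an edgeR adjusted p under 0.05 in the fit with a mean for each time. They depend on that fit, since 0 genes were called by edgeR without the replicate block, in the fit to all 14 libraries or without day 60 replicate 2, while DESeq2 called 4076 genes and limma-voom 4344.

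Interferon-induced genes were lower at day 90, with Isg15 at -3.57, Ifi27l2a at -3.57, Pydc4 at -3.31, Rtp4 at -3.24, Ifit1 at -3.13 and Cxcl10 at -2.63, and Ly6i was at -3.73. Cytokines and chemokines were lower too, with Tnf at -2.48, Ccl2 at -1.97, Il1b at -1.30, Ccl9 at -1.26, Cxcl13 at -1.01 and Ccl6 at -0.95. Among chemokine receptors Ccr3 was at -1.20 and Ccr7 at -0.75, while Cxcr5 was at 1.15.

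Of the lipid genes Fabp5 was at -1.65, Fabp4 at -1.49, Apoe at -1.27 and Pltp at -0.98, in a list of which 13 members were lower and 2 higher at day 90 than at day 60. Other genes lower at day 90 were Spp1 at -1.23, Trem2 at -0.88, Csf1 at -0.88, Igf1 at -0.67, Hmox1 at -0.60 and Npc1 at -0.54. MHC class II genes were lower as well, with H2-Aa at -0.91, Cd74 at -0.90, H2-Eb1 at -0.75 and H2-Eb2 at -0.61. Of the lectin and surface receptor genes Clec4a1 was at -1.34, Clec4a3 at -1.30, Treml4 at -0.63 and Slamf8 at -0.50, and of the regulators Batf3 was at -0.99 and Plk3 at -0.48.

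Cell cycle genes were higher at day 90, with Prc1 at 2.28, Top2a at 2.0, Mki67 at 1.64, Ccnb2 at 1.21, Ccnb1 at 1.11, Hmmr at 1.03 and Zranb3 at 0.89. Higher as well were the neutrophil genes Cd177 at 2.98 and Camp at 2.25, the collagen genes Col3a1 at 2.17 and Col1a2 at 2.14, and Mamdc2 at 2.29. The plasma cell gene Igj at 1.03 was higher, as were Cspg4 at 1.69, Bmp2 at 1.44, Pald1 at 1.43, Cx3cr1 at 1.37, Mrc1 at 1.32, Mmp25 at 0.82 and Itgb5 at 0.58.

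Gpnmb in day 60 replicate 2 stood below the other 3 chronic libraries by 0.836 of the range of the 4 chronic values on a log2 scale, beyond the critical value of Dixon's test. Chance gives such a library in about 1 in 20 groups.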

How the results depend on the processing

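Every pooled call that could be measured kept its direction under every alternative run, while the number of calls varied. Beside 482 genes, 323 higher and 159 lower, the replicate block mattered: without it 251 were called, 173 higher and 78 lower. A mean for each time gave 3891 (2086 higher, 1805 lower, 53.6% higher against 67% in the pooled fit), the 12 stroke libraries 21 (16 and 5) and all 14 libraries 20 (16 and 4, 80% higher). DESeq2 called 1951 (1196 and 755), limma-voom 173 (113 and 60) and a test against a fold of 1.5 called 200 (140 and 60). Leaving out 1 library gave 0 to 1643 calls, 0 to 770 higher and 0 to 873 lower, with 46.9% higher without day 90 replicate 2. Other scalings, filters and thinning to equal depth gave 438 to 535 calls.

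Without the replicate block day 60 against day 7 had 585 calls, day 90 against day 7 had 200 and day 90 against day 60 had 0. All 14 libraries gave 15, 17 and 0 calls in the same order. Leaving out 1 library gave 806 to 5738, 1274 to 3675 and 0 to 2937 calls, an alternative chosen after seeing the data, in which the lone library of a time takes the spread of the others.

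Direction changed in 4 uncalled genes. Tnf was at -0.21 without day 60 replicate 1 and -0.34 without day 60 replicate 2 (range without 1 library -0.34 to 0.74), and P2ry12 at -0.45 without day 7 replicate 1 (-0.45 to 1.05). Sall1 was at 0.06 with 12 libraries, 0.02 with 14, 0.08 without day 60 replicate 2 and 0.54 without day 7 replicate 2 (-0.78 to 0.54). Hmox1 was at -0.05 without day 60 replicate 2 and -0.21 without day 7 replicate 2 (-0.21 to 0.40). The cause of these differences was not tested. The smaller depth of replicate 1 sets the level below which a gene was not detectable.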

Other observations

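Some genes with large changes belong to families or pathways outside the lists, and they were chosen after their values were seen. All 8 Gimap genes tested, GTPases of lymphocytes, had their 4 chronic libraries above both day 7 libraries, 5 of them were called higher, and the log2 fold changes ran between 2.41 and 4.11. Of 6 genes of the Clec4a and Clec4b family, lectin receptors of myeloid cells, 5 were called higher and 3 had all chronic libraries above day 7. Their log2 fold changes ran between 0.42 and 4.47. Of all genes tested 14.9% had all chronic libraries above both day 7 libraries and 2.42% were called higher. Anxa1, annexin A1, a mediator of the resolution of inflammation, was at 1979 and 4367 CPM at day 60, 1681 and 3302 CPM at day 90, and 286 and 535 CPM at day 7 (2.76 ± 0.32, edgeR adjusted p = 0.0146). Tmem176a and Tmem176b, neighbouring membrane protein genes of dendritic cells and macrophages, rose by 2.89 ± 0.44 and 2.77 ± 0.40, with edgeR adjusted p of 0.0263 and 0.0233.

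Day 7 held transcripts that were nearly gone in the chronic libraries. Gal, the neuropeptide galanin, had 0 counts in both day 60 libraries and 2 and 41 counts in the day 90 libraries, against 1448 and 15093 counts at day 7. Both endothelin receptors were lower, Ednrb at 2.6 and 2.44 CPM at day 60, 2.06 and 1.86 CPM at day 90, and 80.9 and 40.9 CPM at day 7 (-4.70 ± 0.30, edgeR adjusted p = 0.00402), and Ednra with a fold change of -4.51 ± 0.47 (edgeR adjusted p = 0.013). Eln, elastin, was below 1 CPM in all chronic libraries, against 11.3 and 22.8 CPM at day 7 (-5.82 ± 0.72, edgeR adjusted p = 0.0166).

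Some transcripts were far higher in replicate 2 than in replicate 1 at every time. Unscaled CPM were at least 8-fold higher in replicate 2 at all 3 times in 117 genes and at least 8-fold higher in replicate 1 in 1 gene, and whether both replicate series were counted alike was not tested. Srp54a, for instance, was at 0.251 and 2750 CPM at day 60, 0.0348 and 2920 CPM at day 90, and 0.432 and 1750 CPM at day 7.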
